A study of Arabidopsis thaliana with 32 samples.

Results

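The m6A peaks of Arabidopsis thaliana seedlings of the lines labelled 35S:FIP37 and 35S:FIP373A were compared. All peaks of the deposited list of each line were taken, 4762 peaks in 2273 genes for 35S:FIP37 and 4294 peaks in 2061 genes for 35S:FIP373A. Together they make up 9056 of the 32684 peaks in the 7 peak lists of the series. Each list stands for 2 immunoprecipitated libraries and 2 inputs, 8 of the 32 libraries of the series, and no source used here says how the replicates were joined. The series asks how auxin, the receptor-like kinase TMK4 and FIP37 bear on RNA methylation, and the comparison of these lines asks which peaks differ between the labelled forms of FIP37.

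The seedlings were 15 days old and grew on Murashige and Skoog medium with sucrose in long days. The labels give the genotype as 35S:FIP37 or 35S:FIP373A, and no treatment for either. The 35S promoter is a viral promoter that is active in most plant cells. What the suffix 3A stands for, the genotype that carries the constructs, the number of independent transgenic lines and the level of FIP37 protein are not stated in the labels. The other lists used for comparison were those of wild-type seedlings under mock treatment or 50 µM NAA for 3 h, and of the tmk4 mutant with NAA, all at the same age. With 1 list per line there is no spread between replicates, so every difference between the lines below is a difference between 2 lists, without a test or a p-value. Read totals are not given for these libraries, so the depth behind each peak is unknown.

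N6-methyladenosine, or m6A, is the most common internal mark of messenger RNA. In plants it is written by a complex of the methyltransferases MTA and MTB with FIP37, VIR and HAKAI, it is read by YTH-domain proteins such as ECT2 and ECT3, and it is removed by ALKBH10B and related demethylases. FIP37 is the plant counterpart of the mammalian subunit WTAP and is needed for most m6A in messenger RNA. In m6A sequencing, fragments of RNA are pulled down with an antibody, and a peak is a stretch of a transcript with more reads in the pull-down than in the input.

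The lines shared most of their methylated genes. A peak in both lists was found for 1603 genes, 58.7% of the 2731 genes with a peak in either, which is 70.5% of the 35S:FIP37 genes and 77.8% of the 35S:FIP373A genes. A peak in 35S:FIP37 only was found for 670 genes (24.5% of the 2731), and in 35S:FIP373A only for 458 genes (16.8%). These shares are the background against which the gene groups below are read. The 5 nuclear chromosomes held similar shares of both lists, from 14.2% on chromosome 2 to 26.7% on chromosome 1 in 35S:FIP37 and from 14.1% to 26.5% in 35S:FIP373A.

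At the level of peaks the overlap was smaller. A peak was counted as shared when a peak of the other line on the same strand overlapped it by at least 50% of the shorter of them. By this rule 2752 peaks of 35S:FIP37 were shared (57.8%, 95% Wilson interval 56.4% to 59.2%), and 2759 peaks of 35S:FIP373A (64.3%, 62.8% to 65.7%). The intervals cover counting error only. The remaining 2010 peaks of 35S:FIP37 (42.2%) and 1535 of 35S:FIP373A (35.7%) matched no peak of the other line. Of these line-only peaks, 987 in 35S:FIP37 (49.1%) and 818 in 35S:FIP373A (53.3%) lay in a gene that had some peak in the other line. The exonic bases covered came to 533327 nt in 35S:FIP37 and 498331 nt in 35S:FIP373A, and 323299 nt were covered in both, 60.6% and 64.9% of each. As a measure of scale, the 2 wild-type mock replicates shared 71.1% and 68.8% of their peaks by the overlap rule, but without regard to strand. Those lists also come from another peak caller and are kept per replicate. The NAA replicates of the wild type, counted in the same way, shared 72.2% and 60.1%.

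Line-only peaks were shorter than shared ones in both lines. Peaks were listed in bins of 50 nt along exons, and the median exonic length was 50 nt in 35S:FIP37 and 100 nt in 35S:FIP373A, with means of 112 and 116 nt. Measured as the whole span from start to end, the median was 100 nt in both. Peaks of a single bin made up 50.2% and 48.8% of the lists. Among shared peaks, 31.1% (35S:FIP37) and 34.4% (35S:FIP373A) were a single bin, against 76.4% and 74.6% of the line-only peaks. Peaks of at least 300 nt numbered 292 in 35S:FIP37 and 312 in 35S:FIP373A, and the longest reached 1000 and 950 nt. A span across more than 1 exon was listed for 21.1% and 22.5% of peaks.

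The share of peaks found in both lines was lower at each step down the ranking by the authors' p, the column headed score. Of the 25% of 35S:FIP37 peaks with the lowest p, 93.9% were shared, and of the 25% with the highest p, 26.1%. In 35S:FIP373A these shares were 92.5% and 35.4%. Ranked by enrichmentScore, the authors' value per peak, read here as a linear ratio, the 25% highest-scoring peaks were shared least. From the highest 25% to the lowest, the shares in 35S:FIP37 were 43.9%, 59.1%, 62.2% and 65.9%. In 35S:FIP373A they were 58.2%, 65.2%, 68.4% and 65.3%.

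**Figure D1:**
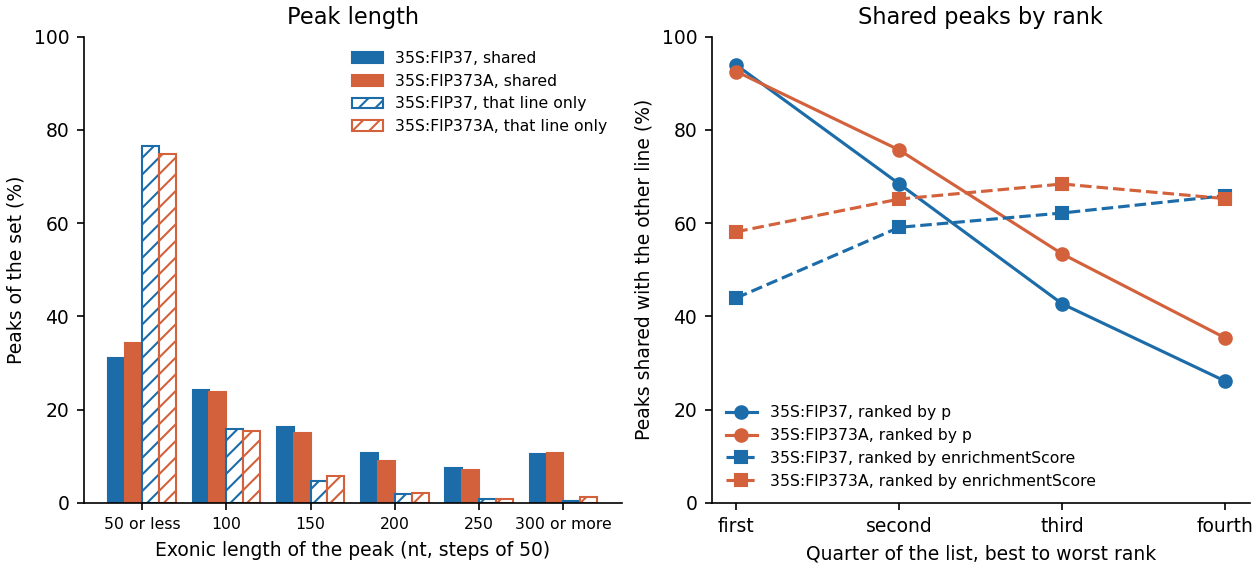
Left, the exonic length of peaks (nt) against the percentage of the set, for shared peaks (filled) and peaks of one line only (hatched). Right, the percentage of peaks shared with the other line in 4 equal steps of a list, ranked by the authors' p (solid) or by enrichmentScore (dashed); by p the share falls from 93.9% to 26.1% in 35S:FIP37 and from 92.5% to 35.4% in 35S:FIP373A.

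The number of peaks per gene was alike in the lists. In 35S:FIP37, 908 genes had 1 peak and 1365 (60.1%) had more, with a maximum of 11. In 35S:FIP373A, 847 had 1 peak and 1214 (58.9%) had more, with a maximum of 10. CHLH (AT5G13630), a subunit of the magnesium chelatase of chlorophyll synthesis, had 11 peaks in 35S:FIP37 and 10 in 35S:FIP373A, of which 9 in each were shared. PEN3 (AT1G59870), a transporter of the plasma membrane that acts in defence, had 8 and 10 peaks, and 8 were shared in each. AVP1 (AT1G15690), the proton pump of the vacuole driven by pyrophosphate, had 8 and 7 peaks, and 7 were shared in each. In these 3 genes most peaks lay at the same places in both lines.

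Other genes with many peaks did not. GLT1 (AT5G53460), the NADH-dependent glutamate synthase, had 11 peaks in 35S:FIP37 and 6 in 35S:FIP373A, of which 4 in each were shared. AT1G01320 had 8 and 1, and AT2G29670 had 3 and 8. Among the 1603 genes with a peak in both lines, 718 had equal numbers, 490 had more in 35S:FIP37 and 395 more in 35S:FIP373A. A difference of 3 peaks or more was found in 44 of them toward 35S:FIP37 and in 29 toward 35S:FIP373A. The numbers depend on how peaks are cut into bins. Of the gaps between neighbouring peaks of a gene, 22.3% in 35S:FIP37 and 21.2% in 35S:FIP373A were exactly 1 bin wide, and joining across them left 4206 and 3820 peaks.

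Genes with a peak were mostly abundant transcripts, and genes with a peak in only 1 line were of intermediate abundance. Levels come from the wild-type mock RNA-seq libraries (n = 3), since levels from the input libraries of the 35S lines were not analysed here, and are in RPKM, reads scaled to gene length and to the library. The median level was 74.9 RPKM for genes with a peak in both lines, 32.7 for 35S:FIP37 only, 32.9 for 35S:FIP373A only and 0.669 for genes with none. The medians in single libraries lay between 72.7 and 75.9 for the first class, between 32.1 and 33.3 for the second and between 31.6 and 33.1 for the third. The medians of the line-only classes thus did not differ from each other beyond the spread between libraries, while both lay far below that of the shared class. The quartiles were 19.5 and 53.5 RPKM for 35S:FIP37 only and 17.0 and 60.9 for 35S:FIP373A only. Of these genes, 92.7% and 87.3% stood at 10 RPKM or more. The spread between libraries is that of the same genes, so it does not measure variation between sets of genes.

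The share of genes with a peak in both lines was higher at each step of level. It was 0.0719% of the 16688 genes under 1 RPKM, 27.7% of the 2538 genes from 30 to 100 RPKM and 78.2% of the 238 genes at 300 RPKM or more. Genes of 35S:FIP37 only were most frequent from 30 to 100 RPKM, at 11.5%, and those of 35S:FIP373A only made up 7.29% there. Of all 34262 genes in the RPKM table, 7.97% had a peak in either line, and of the 8742 genes at 10 RPKM or more, 29.6% had one. Whether a missing peak reflects less methylation or fewer reads was not tested.

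**Figure D2:**
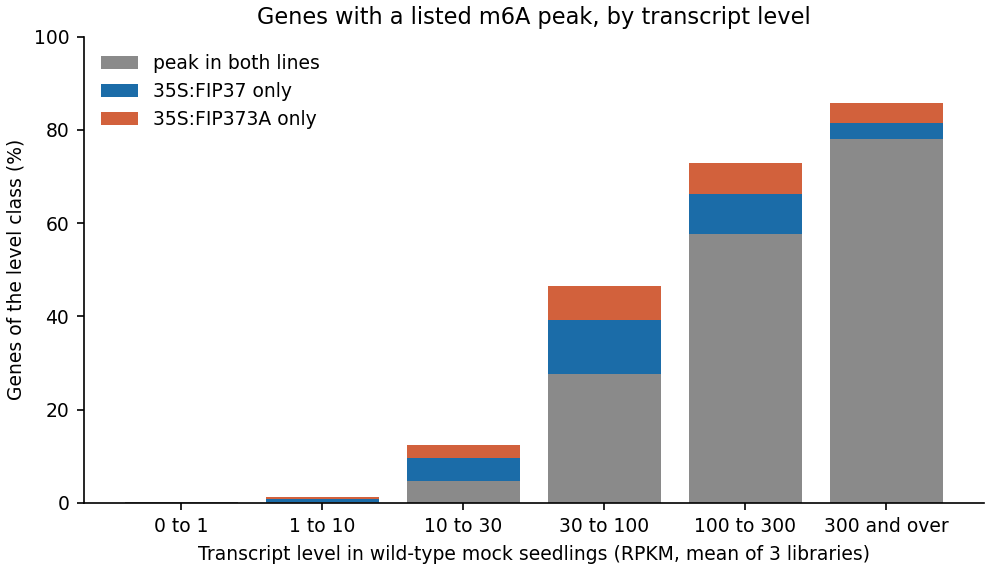
The percentage of genes with a listed peak in both lines (grey), in 35S:FIP37 only (blue) or in 35S:FIP373A only (orange), by transcript level in wild-type mock seedlings (RPKM). The grey share reaches 78.2% at 300 RPKM or more, and the line-only shares are largest between 30 and 100 RPKM.

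At peaks held by both lines the listed enrichment was alike. Only peaks listed in both lines can form a pair, so a site listed in 1 line only is left out of this comparison. Pairing each peak with its best match gave 2621 pairs, with median enrichmentScore 2.29 in 35S:FIP37 and 2.33 in 35S:FIP373A. The median log2 ratio of 35S:FIP373A over 35S:FIP37 was 0.04, with quartiles at -0.12 and 0.21. The score was at least 1.5-fold higher in 35S:FIP373A at 99 pairs (3.78%) and in 35S:FIP37 at 48 pairs (1.83%). Over whole lists the medians were 2.38 and 2.37. Line-only peaks scored a little above shared ones, with medians of 2.55 against 2.29 in 35S:FIP37 and 2.44 against 2.33 in 35S:FIP373A.

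The ratio moved with the length of the paired peaks. Where the peak was longer in 35S:FIP37 (846 pairs), 63 pairs were at least 1.5-fold higher in 35S:FIP373A and 4 in 35S:FIP37. Where it was longer in 35S:FIP373A (700 pairs), 9 and 29 were. Among pairs past 1.5-fold the longer peak thus more often had the lower score. Over all pairs the median log2 ratio was 0.08 where the peak was longer in 35S:FIP37 and 0.01 where it was longer in 35S:FIP373A. At the 996 pairs with the same start and end, a choice made after the data were seen, the median log2 ratio was 0.04 and the counts were 24 and 12.

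**Figure D3:**
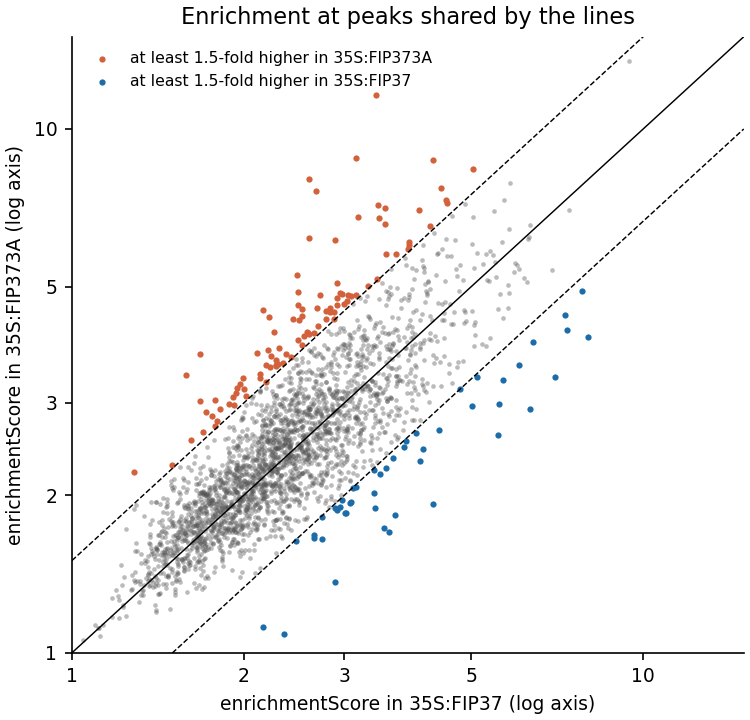
The enrichmentScore of 2621 paired peaks in 35S:FIP37 and 35S:FIP373A, both on log axes, with equality as a solid line and 1.5-fold as dashed lines. Most pairs lie between the dashed lines; 99 lie above them (orange) and 48 below (blue).

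The pairs furthest apart lay in genes of varied roles. INVE (AT5G22510), a neutral invertase of plastids, had a score of 3.41 in 35S:FIP37 and 11.6 in 35S:FIP373A at its peak from 7474845 on chromosome 5 (log2 ratio 1.77), with lengths of 250 and 50 nt. ROPGEF1 (AT4G38430), an activator of ROP GTPases, had 3.14 and 8.79 at the same 50 nt of chromosome 4, 17988654 to 17988703 (log2 ratio 1.48). TIC22, of the protein import machinery of chloroplasts, had 2.61 and 8.04 (1.63). AVT6A, of a family of amino acid transporters, had 2.67 and 7.63 (1.51), and HYD1, a sterol isomerase, 2.60 and 6.18 (1.25). In the other direction RGP1, a mutase of arabinose sugars, had 4.28 in 35S:FIP37 and 1.92 in 35S:FIP373A (log2 ratio -1.15). RPL27 (AT5G40950) had 6.33 and 2.92 at the same 50 nt, 16411965 to 16412014 of chromosome 5 (-1.12). UGT73C5, a glucosyltransferase that acts on brassinosteroids, had 5.56 and 2.61 (-1.09), NDK1 2.89 and 1.36 (-1.08), and the calmodulin-like gene CML12 3.58 and 1.70 (-1.08). AT3G17800 toward 35S:FIP373A (1.15) and RPL18C toward 35S:FIP37 (-1.06) completed the 6 in each direction. Of these pairs only those of ROPGEF1 and RPL27 had equal ends in both lists.

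The genes that the line names point to carried no peak. FIP37 (AT3G54170) and TMK4 (AT3G23750) had 0 peaks in either 35S line, and FIP37 had 1 in tmk4. In wild-type mock seedlings FIP37 stood at 11.3, 12.4 and 11.3 RPKM and TMK4 at 29.3, 30.4 and 34.8. For comparison, 12.5% of genes from 10 to 30 RPKM and 46.5% of those from 30 to 100 RPKM had a peak in either line. These are wild-type levels. The level of FIP37 in the 35S lines was not analysed here, so its level class there is unknown. The other 6 genes of the writer complex and its relatives (MTA, MTB, VIR, HAKAI, HIZ2 and FIO1) and the 5 demethylase genes had no peak in either line. Of 12 reader genes, 2 had one. ECT2 (AT3G13460), at 176 to 196 RPKM, had 3 peaks in each line. Its shared peaks of chromosome 3, from 4386219 and from 4385202 in 35S:FIP37, scored 2.65 and 2.35 there and 2.64 and 2.29 in 35S:FIP373A. They were the longest peaks among the named auxin and m6A genes, at 350 and 500 nt in 35S:FIP37 and 400 and 550 nt in 35S:FIP373A. ECT3 (AT5G61020) had 1 peak of 50 nt in 35S:FIP373A only, with a score of 2.56.

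Genes of tryptophan and auxin synthesis had more peaks in 35S:FIP373A. Of the 30 genes of the auxin biosynthesis list, 11 had a peak in either line, against 7.97% of all genes. In 4 of them (NIT1, SUR1, SUR2 and TSB1) both lines had one, 1 (VAS1) had one in 35S:FIP37 only and 6 in 35S:FIP373A only, against 58.7%, 24.5% and 16.8% over all genes with a peak. The list held 9 peaks in 35S:FIP37 and 20 in 35S:FIP373A. With only the 50% of each list with the lowest p, the numbers were 3 in both, 0 in 35S:FIP37 only and 5 in 35S:FIP373A only. With only peaks at or above the lower quartile of enrichmentScore they were 1, 3 and 5. At the 5 pairs of shared peaks of these genes the median log2 ratio was -0.32, so by the median their listed score was lower in 35S:FIP373A. The lengths of these pairs were not matched, and among all pairs past 1.5-fold the longer peak more often had the lower score.

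The genes with a peak in 35S:FIP373A only cover several steps of the pathway. ASA1 (AT5G05730) and ASB1 (AT1G25220) encode the subunits of anthranilate synthase, the entry to tryptophan synthesis. ASA1 had 1 peak of 150 nt with a score of 2.75 (chromosome 5, 1720380 to 1720607), and ASB1 had 2 peaks with 2.69 and 2.96. TSA1 (AT3G54640), the alpha subunit of tryptophan synthase, had 2 peaks with 1.95 and 1.62. CYP79B2 (AT4G39950), which turns tryptophan into indole-3-acetaldoxime, had 3 peaks on chromosome 4. They lay at 18525142 to 18525417, 18526168 to 18526715 and 18526816 to 18526915, and scored 2.54, 1.95 and 2.06 with p of 1.9e-25, 7.28e-15 and 2.04e-15 by the authors' table. These p are far below the median of the list, 2.7e-08. NIT2 (AT3G44300), a nitrilase that can make auxin from indole-3-acetonitrile, had 2 peaks with 1.65 and 1.24, and the aldehyde oxidase AAO1 (AT5G20960) had 1 with 2.72.

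Wild-type levels of these genes varied widely. The level of CYP79B2 was 26.7, 27.5 and 31.8 RPKM and that of ASA1 37.6, 38.8 and 41.9. TSA1 stood at 73.4, 77.2 and 67.2 RPKM, and AAO1, the lowest, at 8.08, 6.89 and 7.20. NIT1 and NIT2 are near-identical neighbours, and how reads that match both were counted is not given, so a peak in one may hold reads of the other. VAS1 (AT1G80360), an aminotransferase that draws on the auxin precursor indole-3-pyruvate, had 2 peaks in 35S:FIP37 only, with scores of 4.29 and 3.47. SUR1 had a shared peak with 4.07 in 35S:FIP37 and 2.32 in 35S:FIP373A (log2 ratio -0.81), and 1 more peak in 35S:FIP373A with 2.74. TSB1, the beta subunit of tryptophan synthase, had 3 and 4 peaks and NIT1 1 and 2. The 19 other genes of the list, which include TAA1 and all YUC genes, had none.

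Genes of auxin perception and transport with a peak in 1 line only had it in 35S:FIP37. Of all genes with a peak, 24.5% had it in 35S:FIP37 only and 16.8% in 35S:FIP373A only. With 2 perception and 7 transport genes with a peak, no lean is read from these counts. Of 11 perception genes, 2 had a peak, both in 35S:FIP37 only. TMK1 (AT1G66150), a receptor-like kinase related to TMK4, had 4 peaks on chromosome 1 between 24633088 and 24634371, with scores of 2.91, 4.24, 3.4 and 3.5. TIR1 (AT3G62980), the F-box receptor of auxin in the nucleus, had 2 peaks with 2.53 and 3.76. Their wild-type levels were 39.1 to 46.4 RPKM and 33.1 to 37.1. GH3.6, which conjugates auxin to amino acids, had 1 peak in 35S:FIP37 only, with a score of 2.82, among the 11 genes of auxin conjugation.

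Of 15 transport genes, 4 had a peak in both lines, 3 in 35S:FIP37 only and 0 in 35S:FIP373A only, with 21 peaks in 35S:FIP37 and 13 in 35S:FIP373A. These genes are too few to set the list apart from the 58.7%, 24.5% and 16.8% of all genes with a peak. The influx carrier gene AUX1 (AT2G38120) had 4 peaks in 35S:FIP37 only, with scores of 2.68, 7.33, 8.14 and 1.98. Those at 7.33 and 8.14 had p of 0.00016 and 0.00035 in the authors' table, in a list with a median of 2.09e-08. ABCB1 and ABCB19, which export auxin, had 1 peak each in 35S:FIP37 only, with 3.05 and 2.48. With only the 50% of each list with the lowest p, the perception, conjugation and transport lists had 0 genes in 35S:FIP37 only. The efflux carrier genes PIN3 (AT1G70940), PIN4 (AT2G01420) and PIN7 (AT1G23080) had peaks in both, at 5, 3 and 6 peaks in 35S:FIP37 and 5, 3 and 4 in 35S:FIP373A. Over the 11 pairs of shared peaks in transport genes the median log2 ratio was 0.23, against 0.04 over all pairs. The highest single value was 0.74 at a 50 nt peak of PIN7 (chromosome 1, 8182024 to 8182073), with scores of 2.00 and 3.35. The lengths of these 11 pairs were not matched, and the ratio moved with length over all pairs.

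Aux/IAA repressors and ARF factors carried few peaks. Of 29 Aux/IAA genes, IAA2 and IAA8 had a peak in both lines and IAA17 and IAA18 in 35S:FIP37 only. With the 50% of each list with the lowest p, 2 were in both and 0 in 35S:FIP37 only. IAA2 (AT3G23030) had 2 shared peaks with scores of 3.01 and 1.84 in 35S:FIP37 and 2.84 and 2.11 in 35S:FIP373A. At IAA8 the shared peak scored 3.14 and 4.81 (log2 ratio 0.62). Of 15 ARF genes only ARF2 (AT5G62000), which encodes a repressing ARF, had peaks, 4 in 35S:FIP37 and 1 in 35S:FIP373A. The pair it shared scored 1.73 and 2.02. All 4 leaf marker genes (RBCS1A, LHCB1.3, LHCB2.1 and RCA) had peaks in both lines, and 1 of 7 root marker genes, PYK10, did. None of the 8 shoot meristem and 4 seed marker genes had one.

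**Figure D4:**
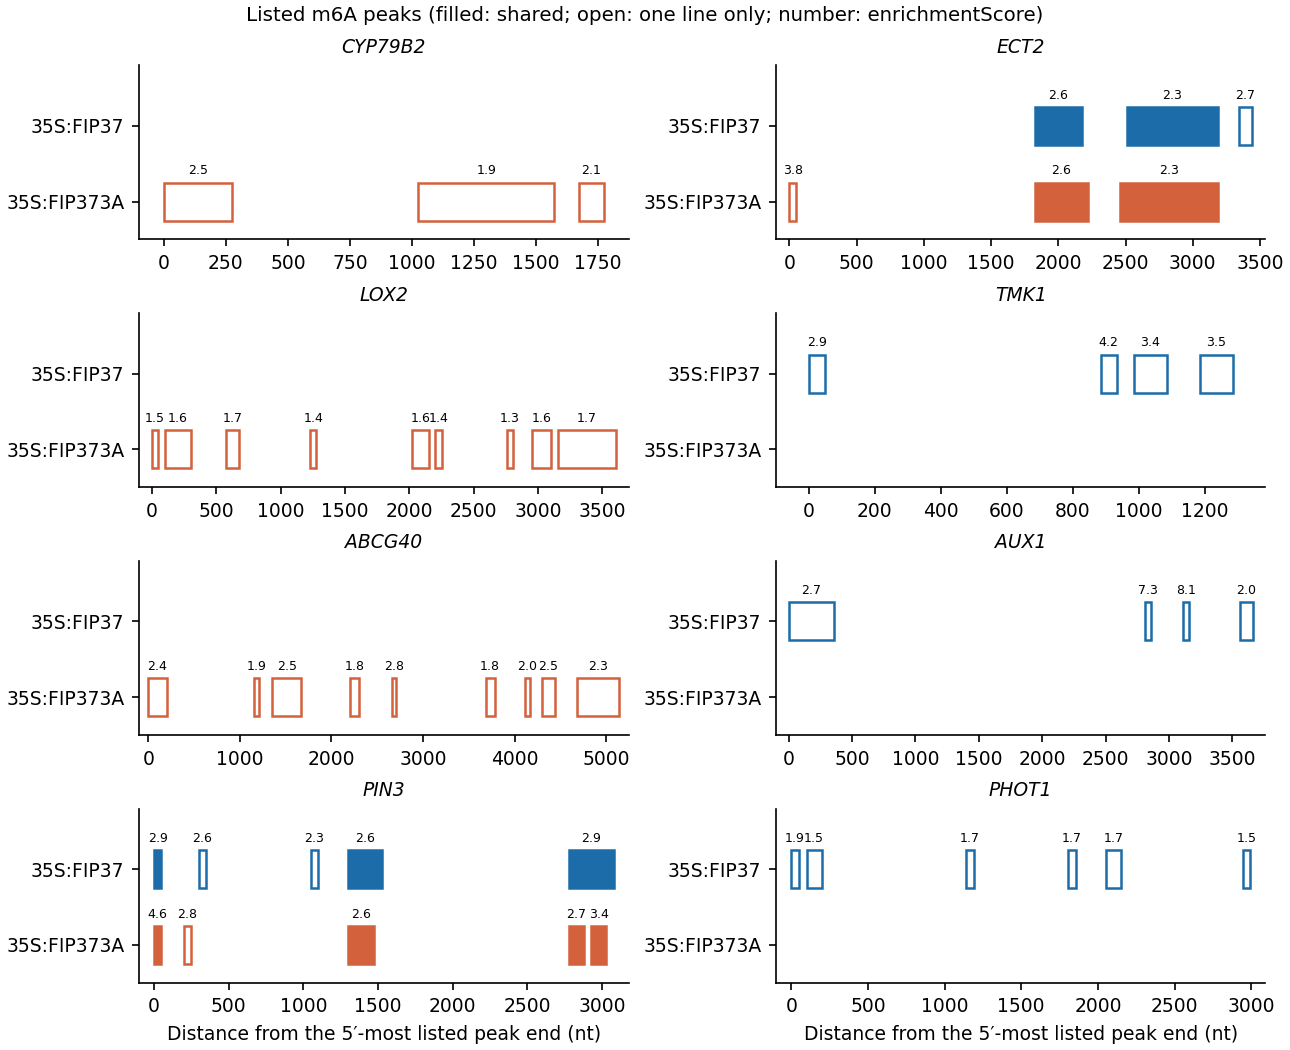
Listed peaks along 8 genes, as distance in nt along the transcript's strand from the 5′-most listed peak end (introns included), in 35S:FIP37 (blue, upper) and 35S:FIP373A (orange, lower). Filled boxes are shared peaks, open boxes are peaks of one line, and the number above is the enrichmentScore; CYP79B2, LOX2 and ABCG40 have peaks in 35S:FIP373A only, TMK1, AUX1 and PHOT1 in 35S:FIP37 only, and PIN3 and ECT2 in both.

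The genes with the widest gap in peak number were mostly absent from the other list. LOX2 (AT3G45140), the lipoxygenase that starts jasmonate synthesis in plastids, had 0 peaks in 35S:FIP37 and 9 in 35S:FIP373A, spread from 16525545 to 16529150 of chromosome 3. Their scores were low, from 1.3 to 1.67, in a list with a median of 2.37. ABCG40 (AT1G15520), an importer of abscisic acid, had 0 and 9 peaks with scores from 1.79 to 2.83. It was a rare transcript in wild type, at 1.07, 1.34 and 1.28 RPKM, and 1.31% of genes from 1 to 10 RPKM had a peak in either line. BIR1, a receptor kinase that restrains immunity, and AATP1, an ATP carrier of plastids, had 0 and 6 peaks each. WAK1, a wall-associated kinase, CYP89A5, HHO3 and ATJ3 had 0 and 5.

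In the other direction, PHOT1 (AT3G45780), a receptor of blue light, had 6 peaks in 35S:FIP37 and 0 in 35S:FIP373A, with scores from 1.49 to 1.85. ENT1, a nucleoside transporter, had 5 and 0, with scores from 2.97 to 6.10. ATR2, a reductase that feeds electrons to cytochromes P450, and AKINBETA1, a subunit of the SnRK1 kinase, also had 5 and 0. KLCR1 had 6 and 1. In wild type ENT1 stood at 14.5 to 16.1 RPKM, PHOT1 at 62.0 to 83.0, ATR2 at 91.8 to 112, KLCR1 at 94.8 to 97.4 and AKINBETA1 at 198 to 239. A difference in transcript level between the lines and a difference in methylation cannot be told apart where 1 list has no peak.

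Most of the listed immune genes with a peak had it in 35S:FIP373A only. This and the following groups were put together after the values were seen and are given as counts. A lean in them is therefore no independent result. Of 22 immune genes, 2 (WRKY33 and WRKY70) had a peak in both lines, 0 in 35S:FIP37 only and 7 in 35S:FIP373A only, with 4 and 23 peaks. Among all genes with a peak, the shares of these classes were 58.7%, 24.5% and 16.8%. The 7 were BIR1, WAK1, TGA1, PAD4, PR1, PR2 and PR5. BIR1 and WAK1, with 6 and 5 of the 23 peaks, were already named above for their gap in peak number. TGA1, a partner of the salicylate receptor NPR1, had 4 peaks with scores of 5.88, 4.56, 5.04 and 6.55, and PAD4, a regulator of salicylate signalling, 1 with 6.05. PR5, a secreted defence protein, had 1 peak with 3.68 and p of 1.63e-25 by the authors' table. PR1, PR2 and PR5 were low in wild type, at 5.41 to 10.7 RPKM. With the 50% of each list with the lowest p, 3 immune genes were in 35S:FIP373A only and 0 in 35S:FIP37 only. In the WRKY family as a whole, 2 genes had a peak in 35S:FIP37 only and 2 in 35S:FIP373A only.

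The UGT and CYP families had more genes with a peak in 35S:FIP373A only than in 35S:FIP37 only. Not every enzyme family did: of the XTH genes, whose enzymes remodel cell walls, 4 had a peak in both lines, 2 in 35S:FIP37 only and 0 in 35S:FIP373A only. Of 58 glycosyltransferase genes named UGT in the annotation, 3 had a peak in both lines, 0 in 35S:FIP37 only and 10 in 35S:FIP373A only. UGT73C5, which the annotation lists under another name, was not counted and had a peak in both lines. UGT73B3, UGT73B4 and UGT73B5 were among the 10. They are close relatives, and how reads that match several of them were counted is not given. Of 224 cytochrome P450 genes named CYP, 9, 0 and 10 fell into these classes. For both families the shares over all genes with a peak, in the same order, were 58.7%, 24.5% and 16.8%. With peaks at or above the lower quartile of enrichmentScore the CYP counts were 5, 3 and 8, and with the 50% of each list with the lowest p 2, 1 and 9. The 11 genes of tryptophan synthesis, most of them in the list above, counted 2, 0 and 3. PAT1, which acts on anthranilate, had 2 peaks in 35S:FIP37 and 4 in 35S:FIP373A. At the paired peaks of UGT genes the median log2 ratio was -0.30 (6 pairs) and at those of CYP genes -0.11 (13 pairs). In both families more peaks were listed in 35S:FIP373A, while the peaks in common scored lower there by the median. The lengths of these pairs were not matched, and among all pairs past 1.5-fold the longer peak more often had the lower score.

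Jasmonate and indole glucosinolate genes were mixed. Of 15 jasmonate genes, 3 had a peak in both lines (AOC1, AOC2 and ACX1), 1 in 35S:FIP37 only (AOS, with a score of 3.45) and LOX2 in 35S:FIP373A only. ACX1, an oxidase of the peroxisome, had 3 peaks in 35S:FIP37 and 7 in 35S:FIP373A. Of 14 indole glucosinolate genes, 6 had a peak in both, 1 (CYP79B2) in 35S:FIP373A only and 1 in 35S:FIP37 only. The last was MYB51 (AT1G18570), a factor that activates this pathway, with 4 peaks and scores of 2.53, 2.55, 2.79 and 9.54.

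In the photosystem, tubulin and aquaporin families, genes with a peak mostly had one in both lines, as did 58.7% of all genes with a peak. The families had median wild-type levels of 806, 157 and 75.2 RPKM. Of all genes at 300 RPKM or more, 78.2% had a peak in both lines, 3.36% in 35S:FIP37 only and 4.20% in 35S:FIP373A only. Whether the families differ from other genes of their level was not tested. Of 39 light-harvesting and photosystem genes, 34 had a peak in both, 1 in 35S:FIP37 only and 2 in 35S:FIP373A only, with 86 and 93 peaks. The median log2 ratio at their 78 pairs was -0.03. Of 15 tubulin genes 14 had a peak in both, and of 22 aquaporin genes of the PIP and TIP types 13 did, with 0 genes in either line only. At the 27 pairs of tubulin peaks and the 25 of aquaporin peaks the median log2 ratio was 0.20, above the 0.04 of all pairs. The lengths of these pairs were not matched. Over all pairs the median was 0.08 where the peak was longer in 35S:FIP37 and 0.01 where it was longer in 35S:FIP373A. Ribosomal protein genes, those named RPL or RPS in the annotation, numbered 40, of which 19 had a peak in both, 6 in 35S:FIP37 only and 1 in 35S:FIP373A only. With peaks at or above the lower quartile of enrichmentScore the genes in both numbered 18 for the photosystem family and 10 for the ribosomal one. No peak was listed in either line for 9 aquaporin and 14 ribosomal genes. Members of these families are similar in sequence, so peaks of neighbouring copies may share reads.

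The highest scores of genes with a peak in 1 line stood on single bins. In 35S:FIP37 they were AT5G10050 at 40.4, STT3A, a subunit of oligosaccharyltransferase, at 37.5, GAMMA CAL1, of mitochondrial complex I, at 32.2 and AT1G34640 at 31.0. UBP1A, an RNA-binding protein, followed at 19.2 and the small GTPase gene RABE1A at 16.8. In 35S:FIP373A they were the GDP-fucose transporter gene GFT1 at 17.4, TL20.3 at 17.3, AT5G11280 at 14.4, PRA1B4 at 13.2, UGT72E2, which acts on lignin precursors, at 12.4 and AT5G57330 at 12.1. Of these 12 peaks 11 were 50 nt long, and that of PRA1B4 was 150 nt. Their p by the authors' table lay between 3.62e-05 for UBP1A and 1.33e-11 for UGT72E2. Scores of 5 or more were 8.91% of line-only and 2.07% of shared peaks in 35S:FIP37, and 8.66% and 3.48% in 35S:FIP373A.

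Line-only peaks of the lines differed in their place along the gene. In genes that also had a shared peak, 46.3% of 828 line-only peaks of 35S:FIP37 lay downstream of all shared peaks and 36.0% upstream of them. In 35S:FIP373A 30.2% of 688 lay downstream and 44.9% upstream. The rest lay between shared peaks. Relative to the transcript's own peaks, the additional peaks of 35S:FIP37 were thus more often toward the 3′ end than those of 35S:FIP373A.

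The line-only peaks also differed in their place relative to wild-type peaks. Peaks of wild-type mock seedlings were taken where both replicates held them (4171 peaks). They were overlapped by 14.0% of the shared peaks of 35S:FIP37 and 13.7% of those of 35S:FIP373A, by 16.4% of the peaks of 35S:FIP37 only (95% Wilson interval 14.8% to 18.0%) and by 9.90% of the peaks of 35S:FIP373A only (8.51% to 11.5%). The corresponding shares for wild-type NAA peaks were 12.5%, 12.3%, 14.6% and 7.56%. Overlap with wild-type peaks was counted without regard to strand, unlike the overlap between the lines. A wild-type mock peak centre lay within 2000 nt of 35.4% to 36.9% of peaks in all 4 sets, and may belong to a neighbouring gene. Of these peaks, it was within 150 nt for 44.1% of the peaks of 35S:FIP37 only, 26.0% of those of 35S:FIP373A only, and 33.0% and 33.7% of the shared ones. It lay further downstream for 46.5% of the peaks of 35S:FIP37 only and 62.6% of those of 35S:FIP373A only. The wild-type lists come from another caller and other libraries, so the low overlap itself cannot be told apart from the change of method.

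**Figure D5:**
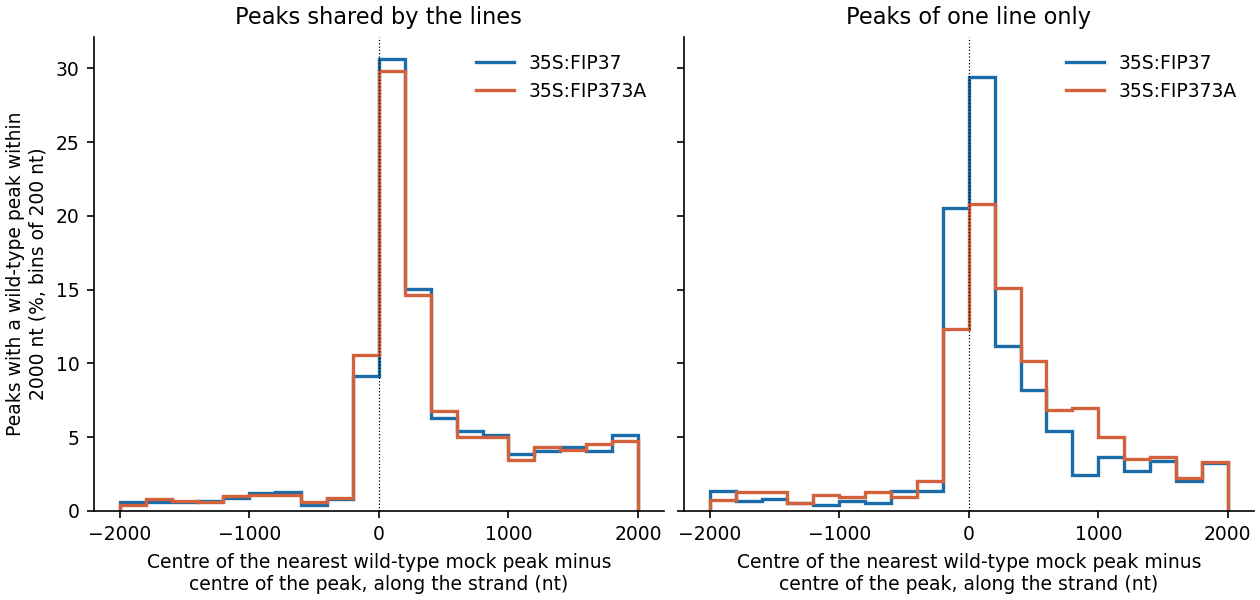
The distance in nt along the strand from a peak of the 35S lines to the nearest wild-type mock peak (positive values: the wild-type peak is downstream), as a percentage of the peaks with one within 2000 nt. The lines nearly coincide for shared peaks (left), which overlap each other by definition. Of the line-only peaks (right), 44.1% of 35S:FIP37 and 26.0% of 35S:FIP373A lie within 150 nt.

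Peaks of tmk4 with NAA, 1865 in all, were made in the same format and overlapped both lines alike. They were matched by 14.4% of shared peaks in 35S:FIP37 and 13.8% in 35S:FIP373A, and by 5.42% (4.52% to 6.50%) and 4.63% (3.68% to 5.79%) of the line-only peaks. Over whole lists, 505 peaks of 35S:FIP37 and 451 of 35S:FIP373A matched a tmk4 peak, 10.6% and 10.5% of each. These were 27.0% and 24.8% of the tmk4 peaks.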

How the data were processed

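Peaks of m6A sequencing and transcript levels from RNA sequencing were used as deposited. The submitters' processing notes name STAR 2.5.3a and the build TAIR10, which the authors used. For each 35S line and for tmk4 the authors deposited 1 list, with an enrichmentScore, read from its values as a linear ratio, and a column headed score, taken to be the caller's p-value or q-value. No source used here names the caller, its settings or the joining of replicates. For the wild type the authors ran MACS 2.2.6 per replicate at a q-value threshold of 0.05 and deposited pileup signal, -log10 p and q values and fold enrichment, per the file headers, of which only peak positions were used. Transcript levels are the RPKM values per gene that the authors deposited. The counting tool is unnamed in the sources, 0 columns were left unassigned, and the columns named for the wild type alone were read as mock.

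Exonic length was the sum of the listed blocks. In 187 and 172 peaks the block sizes had lost their separator and were restored from the peak's span, and 6 and 5 stayed undecided and were left out of lengths. Coordinates are those of the files, counted from 1. Shares were given with 95% Wilson intervals. No test was made between the lines. All 2731 genes with a peak matched the TAIR10.1 annotation of RefSeq, which was used for names only. Python 3.11.15, NumPy 2.4.6, pandas 2.3.3, SciPy 1.17.1 and matplotlib 3.10.9 were used, and the overlap code was tested on simulated data. Sequences, motifs and positions within annotated genes were not analysed here, as no genome of the files' build was used.

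The members, the 13 gene lists (158 genes) and the alternatives were chosen with earlier results of these data known, and 15 more lists and families, and the genes with the widest gap in peak number, were chosen after the values were seen. Named genes were members of the auxin biosynthesis, m6A, auxin perception and ARF lists with a peak, the 5 genes with most peaks per line, the 6 pairs furthest apart in each direction whose higher score reached its list's median, the 6 line-only genes with the highest score per line and the 5 pairs with the highest mean score, plus members of the other lists named beside their counts.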

Additional observations from a re-analysis of the deposited data

How the results depend on the processing

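The direction of the median ratio at shared peaks was the same under every alternative that gives one, from 0.04 to 0.05 on the log2 scale, and the median RPKM of each gene class moved by less than the spread between libraries without any 1 mock library. Outside the gene families and lists, the values that moved are these, with 35S:FIP37 first and 35S:FIP373A second. With peaks at or above the lower quartile of enrichmentScore, 47.9% and 47.4% of genes had over 1 peak, 50.9% and 57.0% of peaks and 66.2% and 73.7% of genes were shared, and 31 pairs were higher in 35S:FIP37. With the 50% of peaks with the lowest p, 2381 and 2147 peaks and 1407 and 1312 genes were left by construction, 44.3% and 43.4% of genes had over 1 peak, and 63.7% and 70.7% of peaks were shared. With the 2000 highest scores per list, 41.4% and 42.1% of peaks and 55.6% and 58.1% of genes were shared. Asking for 50% of both peaks left 44.1% and 49.0% shared and 30 pairs higher in 35S:FIP37. At 2-fold, 13 pairs were higher in 35S:FIP373A and 9 in 35S:FIP37, and at pairs with the same ends 24 and 12. Mean length as a whole span was 149 and 158 nt. Joining peaks 1 bin apart gave 53.8% and 53.6% of genes with over 1 peak and 60.0% and 66.4% of peaks shared. Overlap with wild-type mock peaks, in the order shared and line-only peaks of 35S:FIP37, then of 35S:FIP373A, was 16.9%, 18.6%, 17.2% and 12.1% at 1 bp, 15.9%, 19.0%, 15.9% and 11.6% with mock replicate 1 alone, and 19.7%, 23.0%, 19.1% and 13.0% with replicate 2 alone. Of 168 counts for gene families and lists under stricter peaks, 47 moved. Lists with no peak in either line stay at 0 by construction and are among the unmoved counts. At the lower quartile the genes in both lines fell to 18 for the photosystem family, 10 for the ribosomal one and 2 for indole glucosinolates, while aquaporins stayed at 13, and with the lowest p the listed immune genes numbered 0, 0 and 3 in both, 35S:FIP37 only and 35S:FIP373A only. The joining of peaks, the pairs with the same ends, the single mock lists and the gene lists under stricter peaks were chosen after seeing the data. Except for the halved list, whose size is set by construction, the cause of these moves was not tested. No paired analysis was possible because each line has 1 pooled list. Position in the gene and motif share were not run, as no genome of the files' build was used. Depth is unknown for these libraries, so a peak missing from 1 list was not detected there, and may still exist.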

Other observations

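Some further families were put together after the values were seen, by gene name in the annotation, so relatives under other names are left out. Their counts are given for genes with a peak in both lines, in 35S:FIP37 only and in 35S:FIP373A only. Of 47 glutathione transferase genes they were 9, 2 and 4, and of 106 ABC transporter genes 4, 7 and 5. Of 67 WRKY factor genes they were 2, 2 and 2, with WRKY11 and WRKY40 in 35S:FIP37 only and WRKY6 and WRKY15 in 35S:FIP373A only. Of 120 MYB factor genes 2 had a peak, MYB51 and MYB73, both in 35S:FIP37 only. Of 30 XTH genes, which encode enzymes that remodel the xyloglucan of cell walls, they were 4, 2 and 0. The XTH genes in 35S:FIP37 only were XTH15, at 803, 970 and 1222 RPKM in wild-type mock seedlings, and XTH31, at 7.40, 4.08 and 4.06. The XTH15 peak had an enrichmentScore of 4.99. Read against the 58.7%, 24.5% and 16.8% of all genes with a peak, these counts are too few to rank the families.

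UGT75B1 had 2 peaks in 35S:FIP373A, and RPL27AB had 1 peak in each line, although both genes were listed at 0 RPKM in every wild-type mock library. Genes under 1 RPKM in wild type with a peak numbered 12 in both lines, 5 in 35S:FIP37 only and 7 in 35S:FIP373A only. The cause was not tested.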
